A study of Homo sapiens with 4 samples.

Results

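The stretch of chromosome 5 around ZNF608 carried 28 peaks in 2 deposited lists of HNF1-labelled binding in Caco2 cells, an established line from a human colorectal adenocarcinoma that stands in for intestinal epithelium in many studies. Members were all peaks with a midpoint between 123500 and 124400 kb of chromosome 5 (build hg19). They were 13 of the 5060 peaks of replicate 1 and 15 of the 4955 peaks of replicate 2, and joined to 18 sites of 7108 in all. The window had been chosen from these same lists for its number of sites found in both replicates, so the counts below describe it and are given with no test. ZNF608 lies at about 123973 to 124085 kb on the minus strand, so its 5′ end is the higher coordinate.

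The assay was ChIP-seq, the sequencing of DNA that an antibody pulls down with its bound protein, and the 2 HNF1 libraries were each called against an input of their own replicate number, made without antibody. All 4 libraries came from Caco2 cells grown in low glucose DMEM with serum, and the labels name no treatment or genetic change. Nor do they say whether the replicates were separate cultures, and differences between replicates may thus reflect technique alone. For the antibody, the labels name HNF1 with catalogue number sc-6554, while the extraction protocol names FOXA2. That catalogue number is known elsewhere as an antibody to HNF3 beta, an older name of FOXA2. Which protein was precipitated cannot be told from the lists, and the libraries are called HNF1 libraries after their titles.

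HNF1 is a homeodomain factor that binds DNA as a dimer and activates genes of enterocytes and hepatocytes. FOXA2 is a forkhead protein of endodermal tissues that can bind its sites in closed chromatin. Both are known to bind much of the time at enhancers far from promoters. ZNF608 encodes a zinc finger protein, and its mouse counterpart Zfp608 has been described as a repressor of the Rag1 and Rag2 genes in thymocytes. In the RefSeq gene table of GRCh38.p14, the nearest protein-coding neighbours were CSNK1G3, a casein kinase gene, past the 3′ end and GRAMD2B, a gene for a GRAM domain protein, on the 5′ side. Among genes of any kind, the nearest were the long noncoding RNA genes LINC01170 past the 3′ end and LOC105379156 on the 5′ side. No other gene of that table overlapped ZNF608.

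Neither list held a peak at the 5′ end of ZNF608. The nearest sites had midpoints 10.1 kb inside the gene and 43.6 kb upstream of it, measured from the approximate gene bound. The 250 bases before the RefSeq start are shown because sites lay on both sides of this promoter and none in it. They lie at chr5:124748825-124749074 of GRCh38.p14, a different build from that of the lists, and are written 5′ to 3′ on the gene's strand, with capitals at CCAAT boxes, the element bound by NF-Y.

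ZNF608 promoter: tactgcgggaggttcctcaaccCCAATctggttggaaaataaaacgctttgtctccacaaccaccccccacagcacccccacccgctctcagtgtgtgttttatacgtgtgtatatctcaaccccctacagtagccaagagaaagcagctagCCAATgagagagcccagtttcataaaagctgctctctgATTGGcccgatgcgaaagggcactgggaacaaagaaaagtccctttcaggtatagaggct

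The stretch held the CCAAT letters on the gene's strand starting 228 and 98 bases before the start, and once on the opposite strand at 60 bases (ATTGG as printed). Of 35116 RefSeq promoters cut to the same length, 32.0% held CCAAT on either strand. This element was looked for after the sequence had been seen. The word GTTAAT, 1 arm of the palindrome that HNF1 dimers bind, was not found on either strand, and 6.23% of those promoters hold it. The forkhead word TGTTTAC was likewise not found, and 2.98% of promoters hold it. Nor was its variant TATTTAC, which 2.39% of promoters hold. The GATA word AGATAA, present in 9.17% of promoters, and the AP-1 word TGANTCA, present in 6.57%, also had no match on either strand. The same held for the HNF4 word CAAAGTCCA, present in 0.325% of promoters. Of the CDX words, TTTATGG is present in 2.30% of promoters, whereas 3.66% hold its variant TTTATTG, and neither was found. No match says only that these letters are not in this window, and sequence under the sites themselves was not analysed here.

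Of the 18 sites, 10 were shared, meaning that a peak of each list overlapped by at least 1 bp, 3 were found only by replicate 1 and 5 only by replicate 2. The shared sites were 55.6% of the window's sites, beside 40.9% of the sites of both whole lists. Shared peaks made up 10 of 13 in replicate 1, or 76.9% (Wilson 95% interval 49.7% to 91.8%), where 57.5% of the whole list were shared. In replicate 2 they made up 10 of 15, or 66.7% (41.7% to 84.8%), where 58.6% of the whole list were shared. The intervals cover counting error only and treat peaks as independent. They do not allow for the choice of the window by its shared sites, and are no test against the whole lists. Requiring at least 50% of both peaks to overlap left 5 shared sites and turned the order round. By that rule 38.5% of the window's replicate 1 peaks were shared, beside 49.9% of the whole list, and 33.3% of its replicate 2 peaks, beside 51.0%.

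The sites were unevenly placed along the window. ZNF608 itself, 112 kb long, held 5 sites, of which 4 were shared. The upstream flank of 315 kb held 10 sites, of which 5 were shared. In the downstream flank of 473 kb there were 3 sites, 1 of them shared. Per 100 kb this came to 4.46 sites in the gene, 3.17 upstream and 0.634 downstream, beside 0.299 between the first and last site of chromosome 5. The window was picked for its density, and so these figures are not evidence for it.

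**Figure D1:**
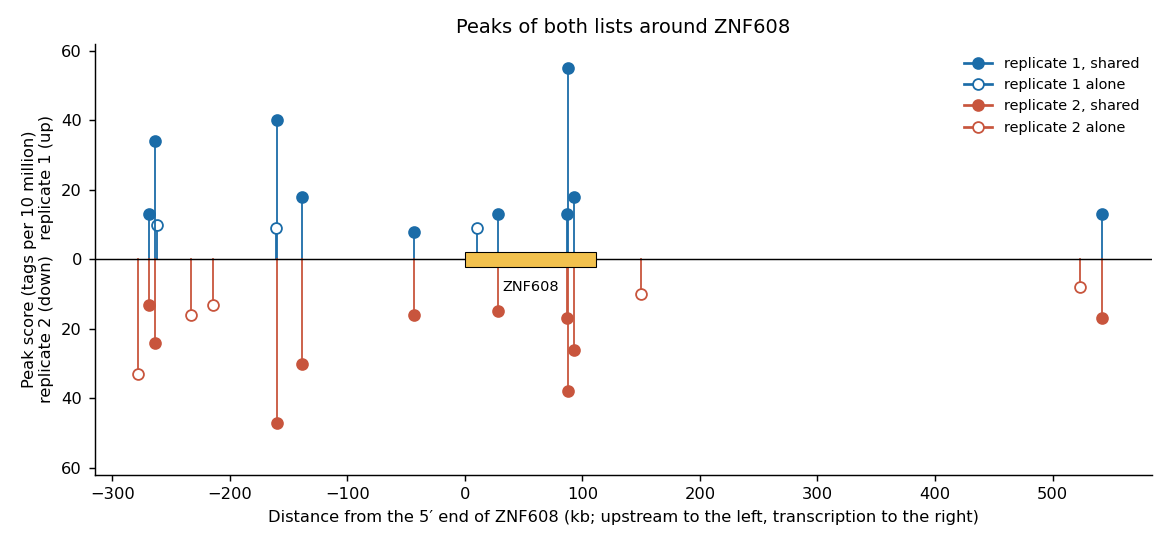
Scores of the peaks (tags per 10000000; replicate 1 upward, replicate 2 downward) by distance from the 5′ end of ZNF608 in kb, with transcription to the right, filled points for shared sites and open points for sites of 1 list, and the gene as a box. Of 18 sites, 10 lie upstream, 5 in the gene and 3 past its 3′ end, and none at the 5′ end.

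The score used throughout is the authors' number of tags in a peak scaled to 10000000 tags per library and rounded. With the depth of these libraries, 1 tag stands for 0.838 units of score in replicate 1 and for 0.541 in replicate 2. Counting intervals are exact Poisson 95% intervals on the tags that a score stands for. They cover counting error only and are approximate because the scores were rounded.

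Within ZNF608, the highest scored site lay 87.7 kb inside the gene from its 5′ end, at chr5:123997141-123997419. It scored 55 in replicate 1 (42.8 to 70.4) and 38 in replicate 2 (29.5 to 47.9). These scores placed it in the top 1.82% and 2.20% of the lists, and sixth and twelfth among the peaks of chromosome 5. It was the highest scored peak of the window in replicate 1 and the second highest in replicate 2.

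A weaker shared site stood 562 bp away, at chr5:123997982-123998335, with scores of 13 (7.66 to 21.8) in replicate 1 and 17 (11.4 to 23.8) in replicate 2. Its peaks overlapped by 16 bp, with midpoints 169 bp apart. On the other side, 5.16 kb nearer the 3′ end, the site at chr5:123991715-123991985 scored 18 (10.9 to 26.9) and 26 (19.2 to 34.5). These 3 shared sites formed a group in the part of the gene nearer its 3′ end.

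Nearer the 5′ end, 28.4 kb inside the gene, the site at chr5:124056438-124056664 scored 13 (7.66 to 21.8) in replicate 1 and 15 (10.1 to 21.9) in replicate 2. The whole width of the replicate 1 peak lay within that of replicate 2. The remaining site in the gene, chr5:124074856-124074998, was in replicate 1 alone with a score of 9 (4.60 to 16.5). The tag threshold in the header of that list, 9 tags, corresponds to a score of 7.54, and the lowest score in the list was 6.

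Upstream of ZNF608 the highest scored site lay 159.5 kb from the 5′ end, at chr5:124244349-124244582. It scored 40 (29.7 to 53.3) in replicate 1 and 47 (37.7 to 58.1) in replicate 2, the top 4.39% and 1.11% of the lists. In replicate 2 it was the highest scored peak of the window and the seventh of chromosome 5. A peak of replicate 1 alone, with a score of 9, lay 932 bp further upstream at chr5:124245515-124245657.

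The site at chr5:124223692-124223918, 138.8 kb upstream, scored 18 (10.9 to 26.9) in replicate 1 and 30 (22.4 to 38.8) in replicate 2. At 43.6 kb upstream, the site nearest to the gene on this side, chr5:124128453-124128679, scored 8 (4.02 to 15.4) and 16 (11.0 to 23.2). Its replicate 1 peak was the lowest of the window in that list, while in replicate 2 it stood in the top 27.0% of peaks. As a ratio, 0.500 for replicate 1 over replicate 2, that was the widest gap between replicates among the shared sites of the window. Even so the counting intervals overlapped.

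The far end of the upstream flank held a group of 4 sites between 262.3 and 278.0 kb from the gene. Its shared site at chr5:124348492-124348718 scored 34 (24.7 to 46.6) in replicate 1 and 24 (17.3 to 32.0) in replicate 2, and its midpoints were 4 bp apart. Another shared site, chr5:124353475-124353804, scored 13 in both lists, with an overlap of 40 bp. A peak of replicate 1 alone with a score of 10 lay 1093 bp from the first of these, at chr5:124347256-124347398.

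The outermost site of that group, chr5:124362881-124363107, was in replicate 2 alone and scored 33 (25.3 to 42.4), in the top 3.96% of its list. It was 1 of 2 peaks without a partner among the 196 peaks of replicate 2 that scored 33 or more, a comparison chosen after its value was seen. The other peaks of replicate 2 alone in this flank scored 13 at chr5:124299318-124299544 and 16 at chr5:124317575-124317801. Filters on the input and on the surrounding 10000 bp removed 1161 and 76 putative peaks in replicate 1 and 3094 and 229 in replicate 2. Whether any of the sites missing from 1 list had been removed in this way was not tested.

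Past the 3′ end of ZNF608 there were 3 sites. The 3 replicate 2 peaks there had a median score of 10, beside 21.5 in the gene and 20 upstream, while the single replicate 1 peak scored 13, as did the median peak of that list in the gene and upstream. The peak nearest to the gene, chr5:123935433-123935659, was 37.5 kb past the gene in replicate 2 alone and scored 10 (5.78 to 15.4). Then followed 373.5 kb without a site, the widest gap of the window. Beyond it, chr5:123561706-123561932 scored 8 in replicate 2 alone. The only shared site of this flank, chr5:123542775-123543140, was 430.0 kb past the gene, scored 13 (7.66 to 21.8) in replicate 1 and 17 (11.4 to 23.8) in replicate 2, and was shared by an overlap of 4 bp.

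The bounds of the window fell in stretches without peaks. Of the outermost peaks inside it, those next to the lower bound scored 13 in replicate 1 and 17 in replicate 2, and those next to the upper bound scored 13 and 33. The first peaks outside lay 1998.6 kb below in replicate 1, with a score of 9, and 353.8 kb below in replicate 2, with a score of 8. Above the window they lay 604.9 kb away in replicate 1, with a score of 13, and 653.2 kb away in replicate 2, with a score of 11. Widening the window by 100 kb on each side therefore added no peak.

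Sites of the window lay close together in small groups. Of the 18 sites, 9 had another site within 10 kb, or 50%, beside 1533 of 7108 sites in both whole lists, or 21.6%. The window was picked for its number of shared sites, and so this difference is not evidence of grouping beyond that choice. Of the 17 gaps between neighbours, 3 were under 2 kb, and the median gap was 18.6 kb. The caller kept peaks at least 284 bp apart in replicate 1 and 452 bp apart in replicate 2, and finer spacing could not be seen.

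Scores in the window were high within the list of replicate 2. Among the 13 peaks of replicate 1 the median was 13 (range 8 to 55), and in the rest of that list it was 12. Among the 15 peaks of replicate 2 it was 17 (8 to 47), and in the rest of that list 11. Scores in the top 10% of the list, 24 or more in replicate 2, were reached by 6 of the 15 peaks, or 40%, beside 10.1% of the rest. In replicate 1, where that bound was 29, they were reached by 3 of 13 peaks, or 23.1%, beside 11.3% of the rest. The window was chosen for its shared sites, and shared peaks scored higher in the lists at large. Peaks are not replicates, so no test was made.

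**Figure D2:**
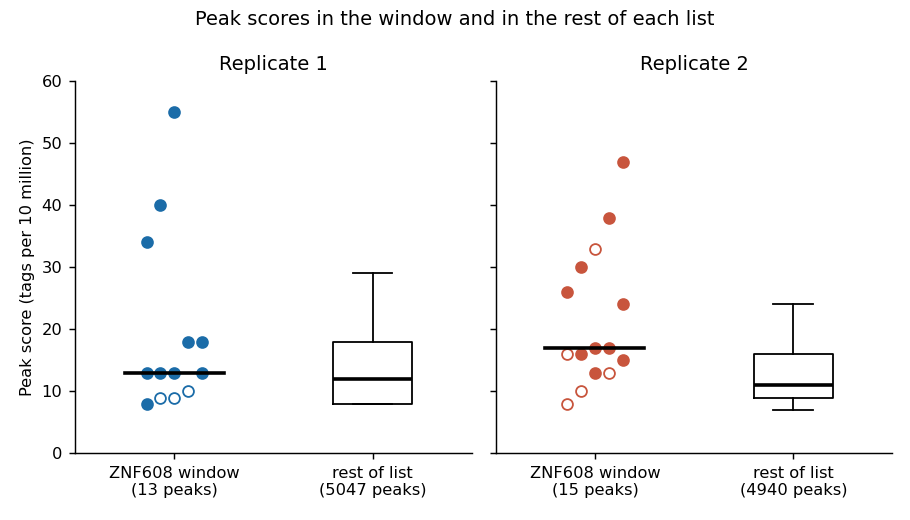
Peak scores (tags per 10000000) of the window on the left and of the rest of each list on the right, with filled points for shared and open points for unshared peaks, black bars for medians, boxes for quartiles and whiskers reaching to the top and bottom 10% of the list. The medians are 13 beside 12 in replicate 1 and 17 beside 11 in replicate 2.

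Shared peaks scored higher than unshared ones in both lists, as they did in the lists at large. In replicate 1 the medians were 15.5 for the 10 shared and 9 for the 3 unshared peaks of the window, beside 15 and 9 in the whole list. For replicate 2 they were 20.5 for the 10 shared and 13 for the 5 unshared peaks, beside 14 and 9. The shared and unshared scores of the window overlapped in both lists, since the lowest shared peak scored 8 in replicate 1 and 13 in replicate 2.

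The replicates ordered the 10 shared sites broadly alike. Spearman's rho between their scores was 0.86 and Pearson's r was 0.82, over 10 pairs that share their libraries and calling settings. Over the 2897 pairs outside the window they were 0.60 and 0.67. In replicate 1, 4 of the shared peaks were tied at 13 and 2 at 18. The highest scored site also differed, at 55 in the gene in replicate 1 and at 47 upstream in replicate 2. Scores of replicate 1 were lower than those of replicate 2 at 7 of the 10 sites, equal at 1 and higher at 2. Among all 2907 shared pairs 36.2% were lower in replicate 1. Elsewhere on chromosome 5 that share was 45.1% of 193 pairs.

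The median log2 ratio of replicate 1 over replicate 2 was -0.31 in the window, beside 0.00 in the rest of chromosome 5 and 0.17 over all pairs outside the window. At each of the 10 sites the counting intervals of the replicates overlapped. The ratios ran from 0.500 to 1.45. The counting window was 142 bp for replicate 1 but 226 bp for replicate 2, and a ratio between the lists does not measure occupancy.

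**Figure D3:**
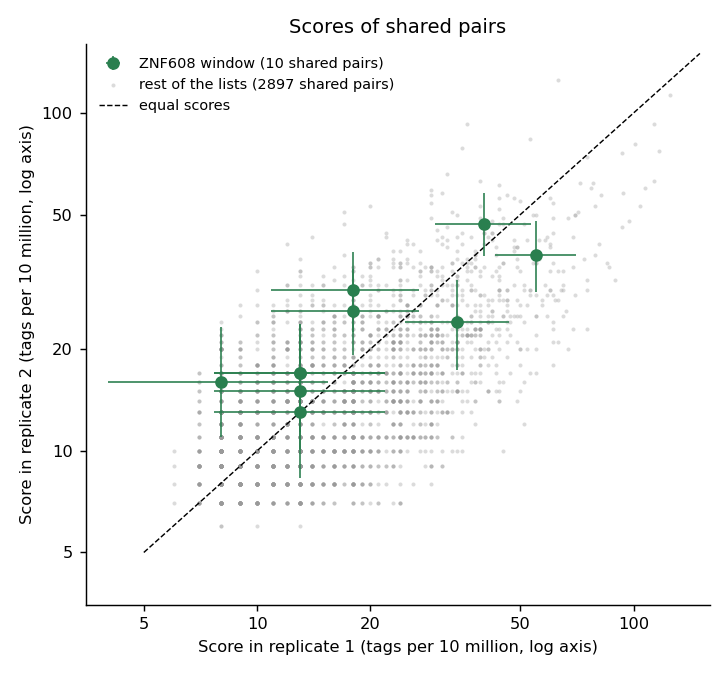
Score in replicate 1 (x axis) and in replicate 2 (y axis) of shared pairs, in tags per 10000000 on log axes, for the 10 pairs of the window with exact Poisson 95% intervals and for the 2897 other pairs as grey points. Of the window's pairs, 7 lie above the line of equal scores, 1 on it and 2 below.

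The positions of shared peaks were compared next, with no test. The midpoints of shared pairs lay a median of 67.5 bp apart in the window, beside 27 bp over the pairs outside it. In 3 of the 10 pairs they were over 100 bp apart, beside 6.08% of the other pairs, and these were the sites that overlapped by 4, 16 and 40 bp. The distance was largest at the downstream site, at 181 bp, and smallest at the upstream site with 4 bp. The peak was centred on the highest tag pile-up of each library, with a fragment length set to 76 bp for replicate 1 but 226 bp for replicate 2.

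The offset was not one way. Replicate 2 midpoints had the higher coordinate at 5 of the sites and the lower at the other 5. All 3 sites of the group nearer the 3′ end of ZNF608 were 86 bp or more apart, and 4 of the 5 shared upstream sites were within 49 bp.

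**Figure D4:**
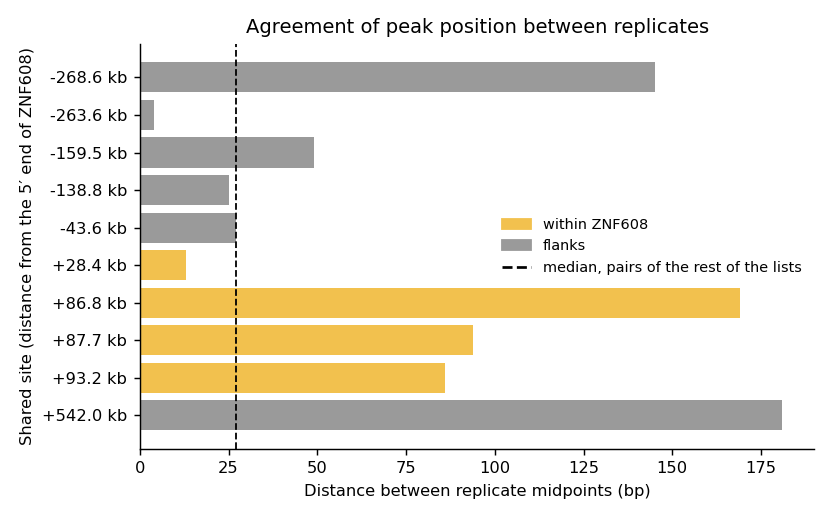
Distance in bp between the peak midpoints of the replicates (x axis) at the 10 shared sites, listed from upstream to downstream by distance from the 5′ end of ZNF608, with a dashed line at the median of the other pairs. The distances run from 4 to 181 bp, and 3 of them exceed 100 bp.

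The window was set beside the 3 other windows of 900 kb that held the most shared sites. The ZNF608 window held 18 sites, 10 of them shared. A window on chromosome 2 from 43184484 held 16 sites, 11 shared, 1 on chromosome 10 from 60228525 held 15, 10 shared, and 1 on chromosome 7 from 137616749 held 14, 9 shared. The ZNF608 window thus had the most sites and, at 55.6%, the lowest share of shared sites, where the others had 68.8%, 66.7% and 64.3%. All 4 were picked for their counts, and the shares rest on 14 to 18 sites each.

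Its shared sites were also the most spread out of the 4, over 811 kb beside 419, 709 and 465 kb. That span rests on the 1 shared site past the 3′ end, which was shared by an overlap of 4 bp. The shared sites in the gene and upstream lay between 123991715 and 124353804 of chromosome 5. This is a shorter stretch than the span of each other window, although those were not trimmed in the same way. Median scores of shared peaks were lowest at ZNF608, with 15.5 in replicate 1 and 20.5 in replicate 2. The chromosome 2 window had 33 and 28, the chromosome 10 window 22 and 23, and the chromosome 7 window 18 and 21. When the 3 other windows were chosen, ties in the number of shared sites went to the higher median score. Scores thus entered that choice, and the order of the medians is not evidence about ZNF608. Over all peaks, shared or not, the replicate 2 median was 17 at ZNF608. It was 23, 20 and 14.5 in the windows on chromosomes 2, 10 and 7. For replicate 1 it was 13 at ZNF608 and 31, 19 and 18 in those windows. Replicate 1 was lower in 7 of 10 pairs at ZNF608 and also in 7 of 10 on chromosome 10, in 5 of 9 on chromosome 7 and in 2 of 11 on chromosome 2. The chromosome 10 window thus had the same count as ZNF608.

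**Figure D5:**
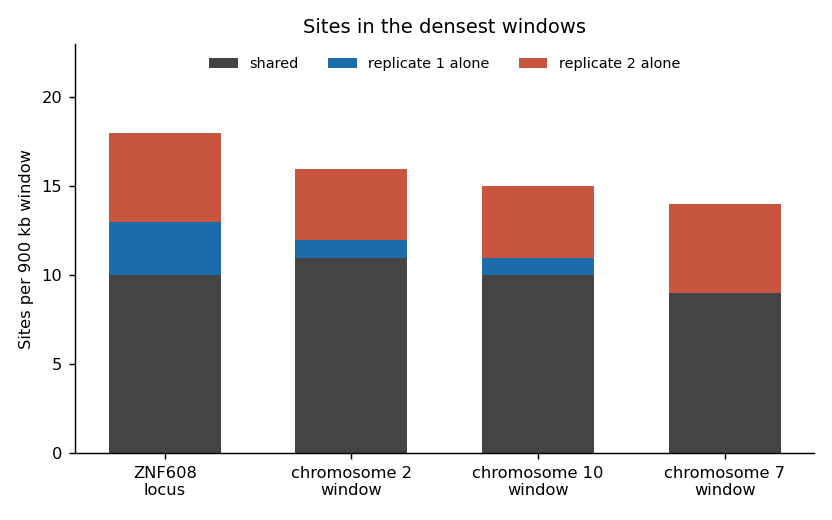
Number of sites (y axis) in the ZNF608 window and in the 3 other windows of 900 kb with the most shared sites, split into shared sites and sites of replicate 1 or replicate 2 alone. The ZNF608 bar is the tallest at 18 sites, and its shared part of 10 lies between 9 and 11 in the others.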

How the data were processed

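Peaks were those deposited by the authors, 1 list per HNF1 library. The submitters' processing notes list the hg19 build, HOMER 1.2 and Bowtie 1.0.0. Per the file headers, HOMER findPeaks in factor mode called each library against its input at a false discovery rate of 0.001, 4-fold over input and over 10000 bp around the peak, with Poisson p limits of 0.0001. Depth was 11931439 tags in replicate 1 and 18469659 in replicate 2, and the tag thresholds were 9 and 13. The deposited score is the tag count scaled to 10000000 tags by the authors and rounded, and was not treated as a count in any test. Peaks were 143 bp wide in replicate 1 and 227 bp in replicate 2.

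Peaks with midpoints in the window were joined when they overlapped by at least 1 bp. All sites are named by rule, with the genes ZNF608 and its neighbours. The window, lists and settings were chosen with earlier results of these data known. The joining step was tested on simulated data. A planned motif search under the sites was not run, since no hg19 sequence was used here. Starts were converted to count from 1. The software was pandas 2.3.3, scipy 1.17.1, numpy 2.4.6 and matplotlib 3.10.9 under Python 3.11.15.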

Additional observations from a re-analysis of the deposited data

How the results depend on the processing

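The count of shared sites depended on the overlap rule. With at least 50% of both peaks overlapping, the window held 5 shared sites, 38.5% of replicate 1 peaks and 33.3% of replicate 2 peaks were shared, below the 49.9% and 51.0% of the whole lists, and ZNF608 held 8 sites because pairs came apart. In the better scored 50% of each list all 9 replicate 1 peaks (100%) were shared, their median score was 18 and the downstream flank held 1 site. Of the 13 replicate 2 peaks left by this cut, 69.2% were shared. Shared peaks scored higher in the lists at large, and the whole-list shares at this cut are not given here. The 100% is thus no trait of this window. With only 1 list, the window held 13 to 15 sites, the gene 4 to 5, the upstream flank 7 to 8 and the downstream flank 1 to 3, the 1 being without replicate 2. Over these and the other settings (midpoints within 200 bp, peaks of 200 bp, wider or narrower windows, gene bounds extended by 5 kb), 62 of 70 recomputed values stayed within 1.5 times for counts, the 95% interval for shares, the spread of the 2 medians for scores, or 0.1 for the rank correlation. Part of that tally was fixed in advance, since the wider window added no peak and the overlap rule and peak width do not enter the score medians. It is therefore no measure of stability. The motif alternatives were not run, as no hg19 sequence was used here. No paired analysis was possible because each immunoprecipitation has a single list and the inputs entered only through peak calling. Lists hold called peaks only, so tags at uncalled positions could not be seen.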
